A study of Rattus norvegicus with 2 samples.

Results

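The skeletal muscle microRNAs (miRNAs) rno-miR-1, rno-miR-133a, rno-miR-133b, rno-miR-206 and rno-miR-378, written below without the prefix for rat, were followed on arrays of rat tongue. They were chosen by name among the non-control features, without their passenger (star) strands, and make up 5 of the 350 rat miRNAs on the array, with 10 of its 938 probes and 99 of its 7000 spots. The study set squamous cell carcinoma of the tongue beside normal tongue in male Sprague-Dawley rats, aged 6 to 7 weeks at the start. Rats of the carcinoma arm were given the carcinogen 4NQO at 0.02 g/l, rats of the control arm received distilled water, each arm held 20 rats, and tissue was taken at the end of week 36. Extracts were made from tissue of 7 tumours and 7 normal tongues. The data are 1 array labelled tumour and 1 labelled normal. The sources used here do not say whether an array held RNA of 1 animal or of a pool. With 1 array per group there is no replicate check and no test between the groups, and errors below come from the spots inside 1 array.

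Skeletal muscle makes up the body of the tongue, beneath the squamous epithelium from which these carcinomas arise. The muscle miRNAs, often called myomiRs, are switched on by muscle transcription factors as myoblasts differentiate, and they repress mRNAs of the undifferentiated state. miR-1 and miR-133a are made together from shared transcripts in heart and skeletal muscle, while miR-206 and miR-133b share a transcript that is largely restricted to skeletal muscle. miR-378 is less specific: it comes from an intron of Ppargc1b, a coactivator of mitochondrial genes, and is also found in fat, liver and heart. In the gene table of RefSeq for GRCr8, a rat assembly, Mir1 and Mir133a1 both lie within the span of Mib1, Mir206 and Mir133b are each other's nearest miRNA genes, and Mir378 lies within the span of Ppargc1b. Coordinates are left out because the grid of the array names another build, rn4.

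The mature sequences show which members can act on the same targets and which the array can tell apart, and they are given here 5′ to 3′ from RefSeq (GRCr8), with the seed (bases 2 to 8, which pair with target mRNAs) in capitals. All 5 members matched an entry there, miR-378 under the name miR-378a-3p, and every probe of a member was complementary to the 3′ end of its sequence.
miR-1: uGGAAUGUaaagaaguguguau
miR-206: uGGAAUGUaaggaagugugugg
miR-133a: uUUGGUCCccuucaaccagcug
miR-133b: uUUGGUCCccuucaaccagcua
miR-378: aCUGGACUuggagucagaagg
miR-1 and miR-206 share their seed and differ at 3 of 22 bases, A11G, A21G and U22G, with the base of miR-1 first and positions counted from the 5′ end. miR-133a and miR-133b share a different seed and differ at 1 of 22 bases, G22A, the last one. The seed of miR-378 was found in no other of the 693 mature names in the table.

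Agilent's miRNA probes start at the 3′ end of the miRNA and run towards the seed, and each member had a pair of probes that differ in length by 1 base. The longer probe of each is printed because its reach decides which relatives it can separate, with the bases that pair with the seed in capitals.
miR-1 probe: atacacacttctttACATTCC
miR-206 probe: ccacacacttccttAC
miR-133a probe: cagctggttgaaggGG
miR-133b probe: tagctggttgaaggGGACC
miR-378 probe: ccttctgactccaA
The miR-206 probes had at least 3 mismatches to every other mature sequence in the table, the closest being miR-1, and the miR-378 probes had at least 4. Probes for the miR-133 members had 1 mismatch to the other member's sequence, at the terminal base, so part of either signal can come from the other miRNA. The miR-1 probes had 1 mismatch to miR-1b, which differs from miR-1 by G17A and shares its seed.

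Signals are given as Feature Extraction intensities after the software's background subtraction. The 672 negative control spots of each array averaged 1.21 (SD 7.28) on the tumour-labelled array and 2.64 (SD 6.31) on the normal-labelled array. Detection of a probe required that over 50% of its spots stood well above background, and the dimmest probes that met this had signals of 18.3 and 18.2. On this rule 104 miRNAs were detected on the tumour-labelled array, 88 on the normal-labelled array, and 85 on both, the 5 muscle miRNAs among them. No spot was saturated. The 75th percentile of the 140 probes detected on both arrays was higher on the tumour-labelled array, 525.6 against 277.5, a 1.89-fold difference. Scaled values below divide each array by that percentile, and values without scaling include its log2 ratio of 0.92. Probes of the muscle miRNAs are among the 140 and raise this factor. With them left out, the median log2 ratio of all 85 miRNAs moved by 0.31, from -0.46 to -0.15. Without scaling that median was 0.46, while 19 positive control features had a median log2 ratio of 0.07. miR-21 and miR-31, both commonly raised in carcinomas of the mouth, were lower on the tumour-labelled array, with scaled log2 ratios of -3.26 and -3.93. The arrays are therefore named by their labels throughout, since an exchange of labels and a difference between the tissues cannot be told apart with 1 array each.

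All 5 muscle miRNAs were brighter on the tumour-labelled array, with or without scaling. Without scaling so were most of the 85 miRNAs measured, whose median log2 ratio was 0.46. After scaling most of the 85 were not, with a median of -0.46. After scaling, 4 of the 5 were at least 2-fold higher, against 11 of the 85 miRNAs measured, or 12.9%. Without scaling all 5 were, against 32.9% of the 85. With the members left out of the percentile all 5 were too, against 21.2%. The calls of miR-133a and miR-378 depended on the treatment of background: with normexp correction 2 of the 5 were at least 2-fold higher, against 3.53% of the 85, with a median log2 ratio of 0.94. With no background correction 3 were, against 5.88%, with a median of 1.03. As processed here, their median log2 ratio was 2.53 after scaling and 3.45 without, against -0.46 and 0.46 over all 85 miRNAs. In bulk tissue, a larger number of muscle cells and more of these miRNAs per cell cannot be told apart.

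miR-1, which promotes muscle differentiation, moved most. Its 21-base probe had an intensity of 7714 ± 119 (SD, n = 8 spots) on the tumour-labelled array and 321.1 ± 11.9 (SD, n = 10 spots) on the normal-labelled array. Its 20-base probe had 1719 ± 76.1 (SD, n = 10 spots) and 66.0 ± 7.15 (SD, n = 10 spots). Without scaling, every spot of the tumour-labelled array was above every spot of the other array for both probes. The 75th percentile was 1.89-fold higher on the tumour-labelled array, and how many other probes also lacked overlap was not counted. The ratio of miR-1 without scaling was 25.0-fold. After scaling it was 13.2-fold, a log2 ratio of 3.72 with a spot SE of 0.03, the highest of the 85 miRNAs. A factor that scales a whole array cannot change this order, and miR-1 was also highest under each alternative that can. The probes' own log2 ratios were 3.66 and 3.78.

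miR-133b, which is made with miR-206, came next. Its 19-base probe read 6912 ± 172 (SD, n = 8 spots) on the tumour-labelled array against 544.9 ± 20.5 (SD, n = 8 spots) on the normal-labelled array. Its 18-base probe read 1014 ± 39.4 (SD, n = 10 spots) against 90.1 ± 5.38 (SD, n = 10 spots). Here too the spots of the arrays did not overlap for either probe without scaling, and overlap was not counted for other miRNAs. The ratio was 11.9-fold without scaling and 6.31-fold after it, a log2 ratio of 2.66 with a spot SE of 0.02.

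miR-133a, the partner of miR-1, rests on 1 probe. Its 16-base probe had an intensity of 205.3 ± 11.6 (SD, n = 10 spots) on the tumour-labelled array and 18.7 ± 4.61 (SD, n = 10 spots) on the normal-labelled array, where 6 of the 10 spots were well above background. Without scaling, the lowest spot of the tumour-labelled array, 188.6, was still above the highest of the normal-labelled array, 27.4. The probes of other miRNAs were not counted in this way. The log2 ratio was 2.53 after scaling (5.78-fold, spot SE 0.12) and 3.45 without (11.0-fold). The 15-base probe had 35.2 ± 3.41 (SD, n = 10 spots) on the tumour-labelled array and was not well above background on the normal-labelled array, at 3.05 ± 4.24 (SD, n = 10 spots). Its ratio is therefore only a bound, computed against the dimmest signal that counted as detected there: at least 1.93-fold higher without scaling and at least 1.02-fold higher after it. Since miR-133b was far from background on both arrays and differs from miR-133a only at the terminal base, how much of the miR-133a signal came from miR-133b was not tested.

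miR-378, the miRNA of Ppargc1b, had an intermediate ratio. Its 14-base probe read 300.2 ± 2.62 (SD, n = 8 spots) on the tumour-labelled array and 43.8 ± 6.32 (SD, n = 10 spots) on the normal-labelled array. The 13-base probe read 176.8 ± 6.51 (SD, n = 10 spots) and 25.9 ± 3.58 (SD, n = 10 spots). Spots of the arrays did not overlap for either probe without scaling, which was not counted for other miRNAs. The probes' log2 ratios differed by only 0.01. The ratio was 6.84-fold without scaling and 3.61-fold after it (log2 ratio 1.85, spot SE 0.05). Among the other 80 miRNAs, 3 had a higher scaled ratio than miR-378.

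The passenger strand of the same hairpin, miR-378*, was detected on the tumour-labelled array alone. Its RefSeq sequence is shown because it has another seed, in capitals, and so is read by probes of its own.
miR-378*: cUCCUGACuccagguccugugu
Its 18-base probe had 101.7 ± 4.52 (SD, n = 10 spots) on the tumour-labelled array and 8.82 ± 3.51 (SD, n = 10 spots) on the normal-labelled array. The 17-base probe had 57.1 ± 3.74 (SD, n = 10 spots) and 2.56 ± 3.93 (SD, n = 10 spots). With 0 spots of either probe well above background on the normal-labelled array, the values are bounds: the longer probe was at least 2.95-fold higher and the shorter at least 1.65-fold higher after scaling, and at least 5.58-fold and 3.13-fold higher without it. Both arms of the miR-378 hairpin were thus brighter on the tumour-labelled array.

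miR-206, the myomiR most restricted to skeletal muscle, had the smallest ratio. Its 16-base probe read 1704 ± 123 (SD, n = 10 spots) on the tumour-labelled array against 476.1 ± 40.9 (SD, n = 10 spots) on the normal-labelled array. Its 15-base probe read 571.6 ± 12.3 (SD, n = 10 spots) against 162.1 ± 10.3 (SD, n = 10 spots). Without scaling, no spot of the normal-labelled array reached the lowest spot of the tumour-labelled array for either probe. Whether this held for the probes of other miRNAs was not counted. The ratio was 3.55-fold without scaling and 1.88-fold after it, a log2 ratio of 0.91 with a spot SE of 0.03, just under the 2-fold line. Its place at that line depended on the scaling: with the members left out of the percentile the log2 ratio was 1.22. It was at least 2-fold higher in 5 of 19 alternative processing settings. Of the other 80 miRNAs, 9 had a higher scaled ratio than miR-206.

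**Figure D1:**
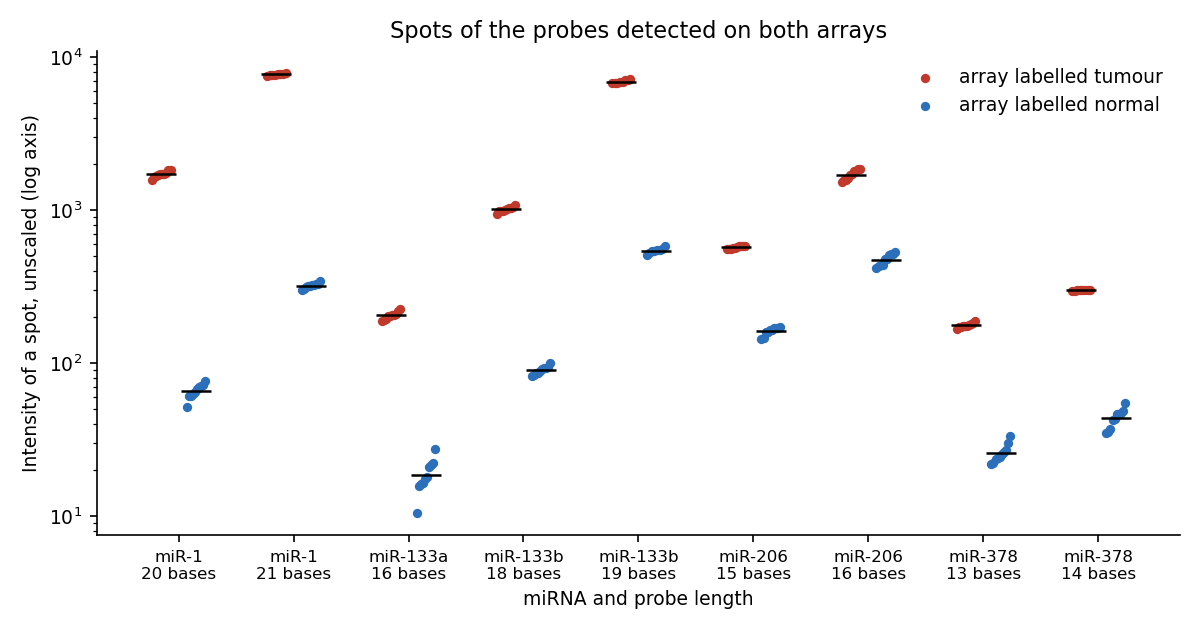
Intensity of each spot without scaling (log axis) for the 9 probes of the 5 muscle miRNAs detected on both arrays, red for the tumour-labelled array and blue for the normal-labelled array, with spots drawn in order of value and a black bar at their mean. Every red group lies above its blue group, with the widest gap for miR-1 (25.0-fold) and the narrowest for miR-206 (3.55-fold). The 75th percentile was 1.89-fold higher on the tumour-labelled array, and overlap was not counted for the probes of other miRNAs.

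The same direction held at each position of the slide layout. Spots with the same feature number that neither array marked as outliers could be compared directly for the probes detected on both arrays, which leaves out the 15-base probe of miR-133a: 18 for miR-1, 17 for miR-133b, 10 for miR-133a, 18 for miR-378 and 20 for miR-206. Without scaling, every one of these position-matched spots was at least 2-fold brighter on the tumour-labelled array. Of the 85 miRNAs measured, 32.9% were also at least 2-fold higher without scaling, and matched spots were counted for the muscle miRNAs alone. The lowest single-spot log2 ratio was 4.46 for miR-1, 3.30 for miR-133b, 2.94 for miR-133a, 2.31 for miR-378 and 1.69 for miR-206. After scaling, every matched spot of the first 4 stayed at least 2-fold higher, while for miR-206 only 2 of 20 did. Of the 85 miRNAs, 12.9% were at least 2-fold higher after scaling. Spots of the same array repeat the same hybridisation, so these counts restate the probe ratios and are no replicate check.

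Differences between members do not depend on any factor that scales a whole array. The log2 ratio of miR-1 exceeded that of miR-206 by 2.82 (spot SE 0.04), or 7.04-fold, although both carry the same seed. The ratio of miR-133b exceeded that of miR-206, its transcript partner, by 1.75 (spot SE 0.04), or 3.36-fold. The miR-133b probes have 1 mismatch to miR-133a, and the part of miR-133a in the miR-133b signal was not tested. miR-1 exceeded its own partner miR-133a by 1.19 (spot SE 0.12). By contrast, miR-133a and miR-133b differed by 0.12 with a spot SE of 0.12. These spot errors cover the spread within 1 array each and not that between samples. Background treatment moved the differences that involve a dim member: with normexp correction miR-1 exceeded miR-133a by 2.35, miR-133b exceeded miR-133a by 1.45, and miR-206 and miR-378, which were 0.94 apart, were both at 0.81 to 0.82. Probes respond to RNA in their own ways, and whether all 5 do so in proportion was not tested.

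**Figure D2:**
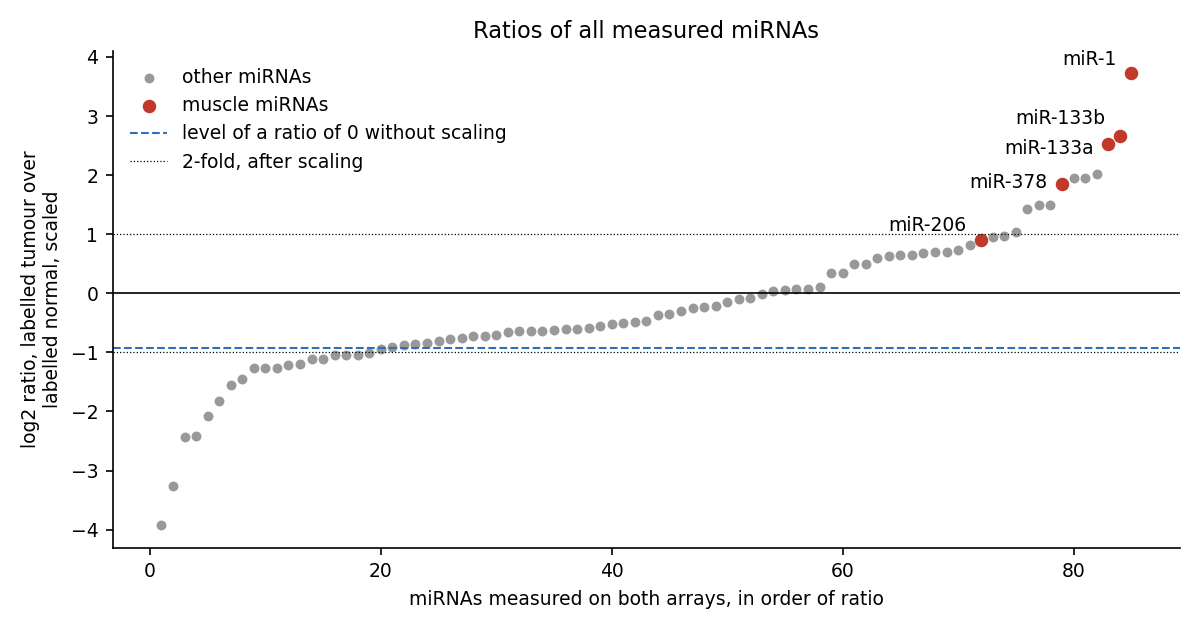
The scaled log2 ratio, labelled tumour over labelled normal, of each of the 85 miRNAs measured on both arrays, in rising order, with the muscle miRNAs in red. Dotted lines mark 2-fold after scaling and the dashed line marks where a ratio of 0 would lie without scaling; miR-1, miR-133b and miR-133a are the 3 highest points, and miR-206 at 0.91 lies just under the 2-fold line.

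As a share of the total gene signal summed over the 350 miRNAs, the 5 members made up 28.2% on the tumour-labelled array and 4.46% on the normal-labelled array. For miR-1 the shares were 13.5% and 1.02%, for miR-133b 10.4% and 1.52%, and for miR-206 3.26% and 1.68%. miR-378 and miR-133a took under 1% of the signal on either array, miR-378 with 0.68% and 0.18% and miR-133a with 0.34% and 0.057%. Brightness differs from probe to probe, so these shares compare 1 miRNA between arrays and do not rank the members by abundance.

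Other muscle-enriched miRNAs gave little signal on either array, apart from miR-378* on the tumour-labelled array. Of the 9 names listed, 4 had a probe of that name, and miR-378* was the only one of these detected on any array. miR-208 and miR-499, which are encoded within myosin heavy chain genes of heart and slow muscle, were not well above background on either array, with total gene signals of -3.10 and -4.73 for miR-208 and -0.32 and -1.95 for miR-499 on the tumour-labelled and normal-labelled arrays. miR-1*, the passenger strand of miR-1, was not well above background either, at 7.77 and 11.4.

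miRNAs linked to myoblast differentiation as regulators, most of them expressed in many tissues, did not move as a group. Of 15 listed, 14 were on the array and 12 were measured on both arrays; 1 was at least 2-fold higher on the tumour-labelled array after scaling, 2 were at least 2-fold lower, and the median log2 ratio was -0.24, against 12.9% higher, 22.4% lower and a median of -0.46 over all 85. Without scaling 4 were higher and 1 was lower, against 32.9% and 5.88% of the 85, and the median was 0.68. The 1 that was higher was miR-29c, whose family targets collagen mRNAs, at 2.02. miR-26a, which promotes differentiation through Ezh2, was at 0.96, miR-29b at 0.66 and miR-322 at 0.63. Near or below 0 were miR-125b-5p (-0.10), miR-24 (-0.22), miR-27b (-0.26), miR-181a (-0.50), miR-199a-3p (-0.60) and miR-27a (-0.80). The 2 that were lower were miR-214 at -1.44, which without scaling was at -0.52, and miR-221, which delays the exit from the cell cycle, at -2.43. miR-222 and miR-503 were not detected on either array.

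Marker miRNAs of other cell types on the same arrays are given beside these values. All 7 epithelial markers, the miR-200 family with miR-203 and miR-205, were detected on both arrays. They lay between -1.26 and -0.24 after scaling with a median of -0.61, and between -0.34 and 0.69 without scaling. Their summed total gene signal was 2744 on the tumour-labelled array and 2462 on the normal-labelled array, against 13048 and 1126 for the 5 muscle miRNAs. The median of the muscle miRNAs thus lay 3.14 above that of the epithelial markers on the log2 scale, whatever factor scales the arrays, and 1.58 above it with normexp background correction.

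Markers of vessels and red blood cells also had ratios above 0, below those of the muscle miRNAs other than miR-206. The smooth muscle miRNA miR-143 had a scaled log2 ratio of 0.82, and miR-145, its partner, was not detected on either array; their summed signals were 433.8 and 129.4. The endothelial miR-126 was at 0.68, with signals of 511.1 and 167.1, and the red blood cell miR-451 was at 1.04, with miR-144 not detected and summed signals of 137.3 and 30.7. The part of these cells in the muscle signal was not tested. The 3 fibroblast markers lay between -1.56 and -0.60. Of the 4 leukocyte markers on the array, 3 were measured and lay between -2.41 and 1.43. Of the 4 nerve markers only miR-128 was detected, on the tumour-labelled array alone, and 0 of the 4 liver and pancreas markers, which tongue should lack, were detected on either array.

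**Figure D3:**
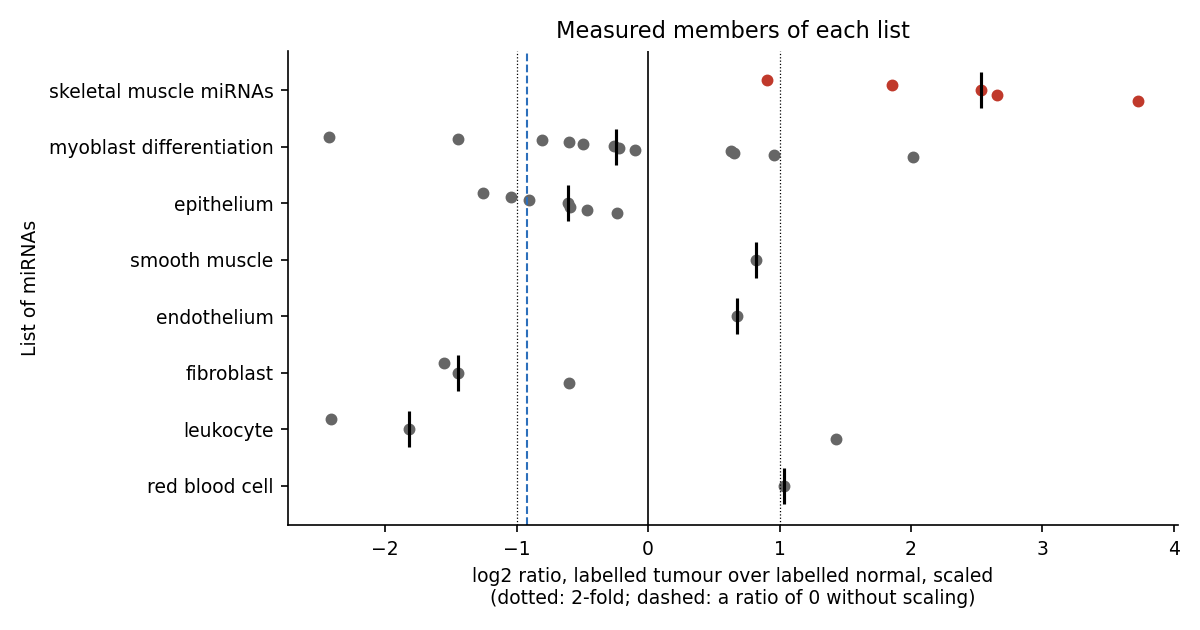
Scaled log2 ratios, labelled tumour over labelled normal, of the measured members of each list of miRNAs, with a black bar at the list's median; dotted lines mark 2-fold and the dashed line a ratio of 0 without scaling. The muscle miRNAs (red) run from 0.91 to 3.72, while the 7 epithelial markers run from -1.26 to -0.24.

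Outside the members, the miRNAs with ratios nearest to their median of 2.53 were miR-29c at 2.02, miR-30e at 1.96 and miR-30a at 1.94. This likeness was measured over the 2 arrays alone as the difference of log2 ratios. miR-29c is also on the list of miRNAs linked to myoblast differentiation. After scaling none of miR-29c, miR-30e and miR-30a reached the ratios of miR-1, miR-133b or miR-133a. With normexp, miR-30a at 1.23 and miR-29c at 0.97 lay above miR-133a at 0.94, and miR-30e at 0.86 lay below it.

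How background was treated changed the dim members more than the bright ones. Normexp correction adds an offset of 50 to every signal, which is more than the mean signal of any probe of miR-133a or miR-378 on the normal-labelled array. With it, neither miR-133a at 0.94 nor miR-378 at 0.81 was 2-fold higher, while miR-1 stayed at 3.29 and miR-133b at 2.39. The number of members at least 2-fold higher was then 2 of 5, against 3.53% of the 85 miRNAs. Without any background correction the values were 1.03 for miR-133a and 0.88 for miR-378. With the local background subtracted and no offset added, they were 1.39 and 1.15, also below the 2.53 and 1.85 reported above.

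**Figure D4:**
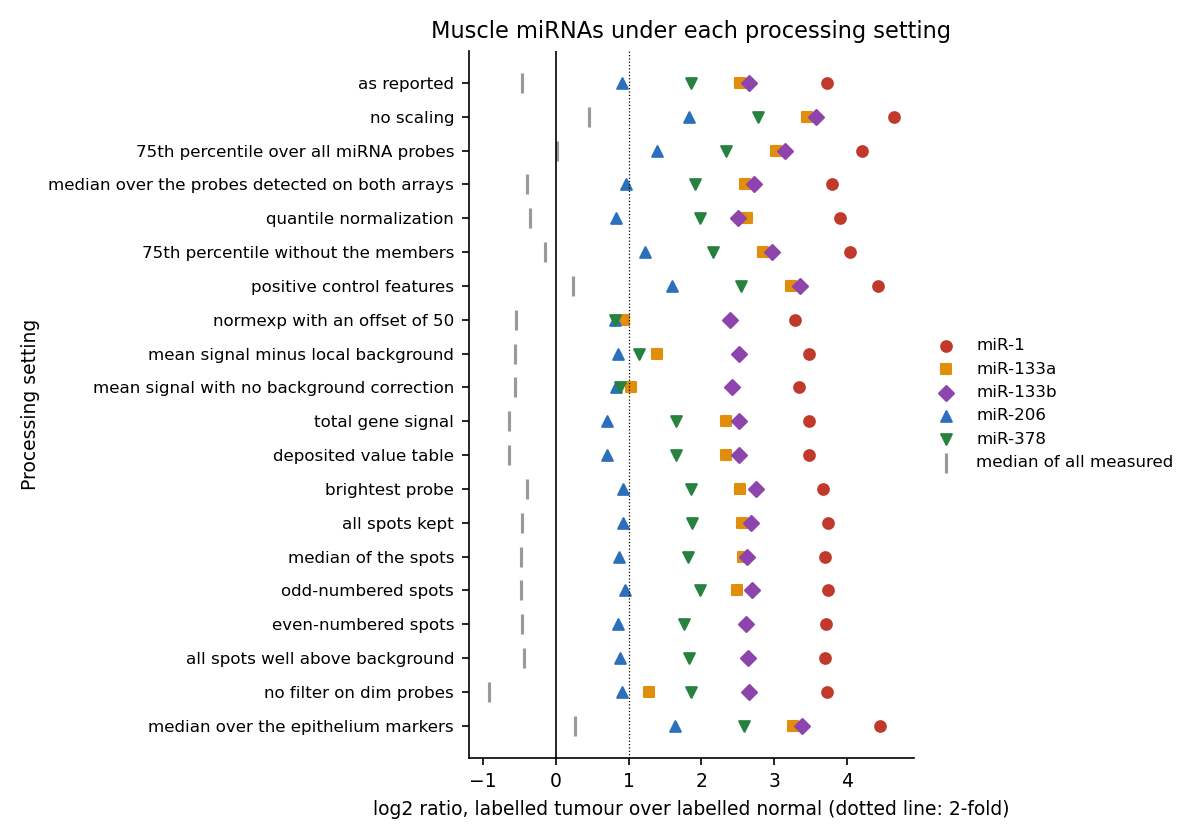
The log2 ratio, labelled tumour over labelled normal, of each muscle miRNA under each processing setting, with a grey bar for the median of all miRNAs measured under that setting and a dotted line at 2-fold. miR-1 and miR-133b stay to the right of that line throughout, and miR-206 runs from 0.71 to 1.83, on both sides of it. miR-133a and miR-378 approach miR-206 where background is treated differently.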

How the data were processed

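Cy3-labelled RNA was hybridised to Agilent 1-colour miRNA arrays. The authors' deposited intensity values come from Feature Extraction 10.5.1.1 with background subtraction and spatial detrending, per the file headers, and were not scaled between arrays. The kit named in the labels amplifies messenger RNA, and the sources used here do not say how miRNA was labelled. The deposited value table matched the total gene signal (tolerance 1e-06), with values below 1 set to 1.

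Outlier spots were left out (5 and 1 of the members' spots), spots averaged per probe, arrays divided by the 75th percentile of the probes that both detected, and values floored at the lowest detected signal. Log2 ratios of such probes were averaged per miRNA. Calls are a size of 2-fold, not a test. Spots of detected probes had a median CV of 5.20% and 6.33%; the number of arrays limits the precision. Normexp used limma 3.58.1. The steps were checked on simulated data. Members, lists and alternatives were chosen with earlier results of these data known. The miRNAs named are the members, their star strands, both muscle lists and the 3 miRNAs nearest to the members' median ratio, with at most a few values from other lists and miR-21 and miR-31, chosen after their values were seen.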

Additional observations from a re-analysis of the deposited data

How the results depend on the processing

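Of 19 alternatives, 18 were planned with earlier results of these data known. The other 1, scaling on the epithelial markers, was chosen after seeing the values. The deposited value table gave the same values as the total gene signal. All 5 muscle miRNAs kept a ratio above 0 wherever they had a value. Most of the 85 miRNAs also had one without scaling, with a median of 0.46. miR-1 (3.29 to 4.64) and miR-133b (2.39 to 3.58) were at least 2-fold higher in all 19, miR-378 (0.81 to 2.77) in 17, miR-133a (0.94 to 3.45) in 16 of 17 and miR-206 (0.71 to 1.83) in 5. miR-133a had no value in even-numbered spots or with all spots well above background. The median log2 ratio of the members moved to 3.45 without scaling, 3.02 with the 75th percentile over all probes, 3.23 on the positive control features, 3.26 on the epithelial markers, 1.85 with no filter, 1.39 with local background subtracted, 1.03 with no background correction and 0.94 with normexp, where the count at least 2-fold apart was 2. Over the 19 it lay 1.47 to 3.05 above the median of all miRNAs measured. Counts over all 85 miRNAs, 11 higher and 19 lower, became 28 and 5 without scaling, 23 and 7 with all probes, 18 and 8 without the members in the percentile, 27 and 6 on the control features and on the epithelial markers, and 3 and 8 with normexp; the median of all 85 moved by 0.92, 0.48, 0.31, 0.69, 0.73 and -0.075. The no-filter setting covers all 350 miRNAs. On the normal-labelled array miR-133a, at 18.7, was close to the dimmest detected signal of 18.2. No paired analysis was possible because each group holds 1 array and the result comes from no test.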

Other observations

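A single added base changed how brightly a probe of the same miRNA shone. The 19-base probe of miR-133b was 6.82-fold brighter than the 18-base probe on the tumour-labelled array and 6.05-fold brighter on the normal-labelled array. For miR-1 the longer probe was 4.49-fold and 4.86-fold brighter, for miR-206 2.98-fold and 2.94-fold, and for miR-378 1.70-fold and 1.69-fold. The gap between the probes was a property that both arrays shared, so that the log2 ratio between arrays differed by at most 0.17 between the probes of these 4 muscle miRNAs, miR-133a having only 1 probe measured on both arrays, against at most 0.33 in the other 51 miRNAs with such a pair. In those 51 the longer probe over the shorter had a median of 2.59-fold on the tumour-labelled array and 2.56-fold on the normal-labelled array. The longer probe was brighter on both arrays for 53 of all 55 miRNAs; the exceptions were miR-494, at 0.32-fold and 0.37-fold, and miR-324-3p, at 0.97-fold and 0.91-fold, both named after their values were seen. These values concern probes and say nothing of the amount of RNA.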
